A study of Mus musculus with 24 samples.

Results

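The response of the mouse lung to diesel exhaust particles labelled C-DEP was compared between animals that received ovalbumin at the same time and animals that did not. The quantity examined is a difference of differences on the log2 scale: the CDEP/OVA group minus the Saline/OVA group, less the CDEP group minus the Saline group. It is 0 where the particles shift a gene by the same factor with and without ovalbumin, above 0 where the shift is more upward with ovalbumin, and below 0 where it is more downward. The 4 groups of 3 mice were chosen by their sample titles and make up 12 of the 24 arrays of the series. The CDEP/OVA mice received 150 ug of the particles together with 20 ug of ovalbumin (OVA), an egg white protein used as a model allergen, the Saline/OVA mice received OVA alone, the CDEP mice received particles alone, and the Saline mice received neither. All were female BALB/C mice of 8 to 10 weeks, an inbred laboratory strain, dosed through the nose on days 0 and 13 and killed 18 h after the second dose. The series title calls the 3 particle samples of the study, written NDEP, ADEP and CDEP here, chemically distinct, and the other 12 arrays carry the other 2 particles with and without OVA. Each array measured the lung RNA of 1 mouse, and the replicates are labelled as biological. With 3 arrays in each group, their number limits how precise each value is.

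A first exposure to an inhaled protein together with an irritant can sensitise an animal, so that a second exposure calls up T helper cells of the type 2 or type 1 kind. Type 2 cells make the cytokines IL-4 and IL-13, which turn macrophages towards arginase and chitinase-like proteins, turn airway epithelium towards mucus, and draw eosinophils through eotaxins. Type 1 and natural killer cells make interferon gamma, which acts on promoter sites such as the gamma-activated site (GAS) and induces guanylate binding proteins, immunity-related GTPases and the chemokines CXCL9 and CXCL10. Particles alone are known to set off an acute phase and neutrophil response in the lung that needs no sensitisation.

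The arrays read as lung. The markers Sftpc and Sftpb of alveolar type 2 cells, Scgb1a1 of club cells, Ager of alveolar type 1 cells and Cldn5 of endothelium had mean levels of 13.72, 11.89, 13.99, 11.70 and 11.37 log2 intensity over the arrays, all above the 99th percentile of 12393 genes. Array medians lay between 72.2 and 75.5 intensity units. In whole lung, fewer cells of a type and less RNA per cell cannot be told apart. A gene is called dim in a group where its mean lies below the 25th percentile of each of that group's arrays (4.45 to 4.64 log2 over all arrays), and its level there is not shown to be above background.

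Measures of RNA quality and the markers of heart muscle and fat cells also differed among the 4 groups. The difference between the 3' and 5' probe sets of Actb, which grows as RNA degrades, ran from 0.848 to 1.23 log2 on CDEP/OVA arrays, 0.729 to 0.914 on Saline/OVA arrays, 0.636 to 0.688 on CDEP arrays and 0.808 to 1.20 on Saline arrays. The same difference for Gapdh was 0.193 to 0.583, 0.0139 to 0.319, 0.000162 to 0.123 and 0.125 to 0.679 in those groups. As differences of differences they came to 0.56 and 0.51, so both followed the same contrast as the genes below. The summed intensity of 24 heart muscle markers, a tissue that lies next to the lung and also sleeves the pulmonary veins of mice, was 3815 to 5290 on CDEP/OVA arrays, 8543 to 9369 on Saline/OVA arrays, 6311 to 7928 on CDEP arrays and 8963 to 15486 on Saline arrays. The mean z score of the fat cell markers ran from -1.21 to -0.70 on CDEP/OVA arrays and -0.43 to 0.57 on Saline/OVA arrays. It ran from -0.18 to 0.28 on CDEP arrays and 0.56 to 1.65 on Saline arrays. The part of RNA quality and of heart and fat tissue in the results was not tested beyond the covariate fits given beside them.

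**Figure D1:**
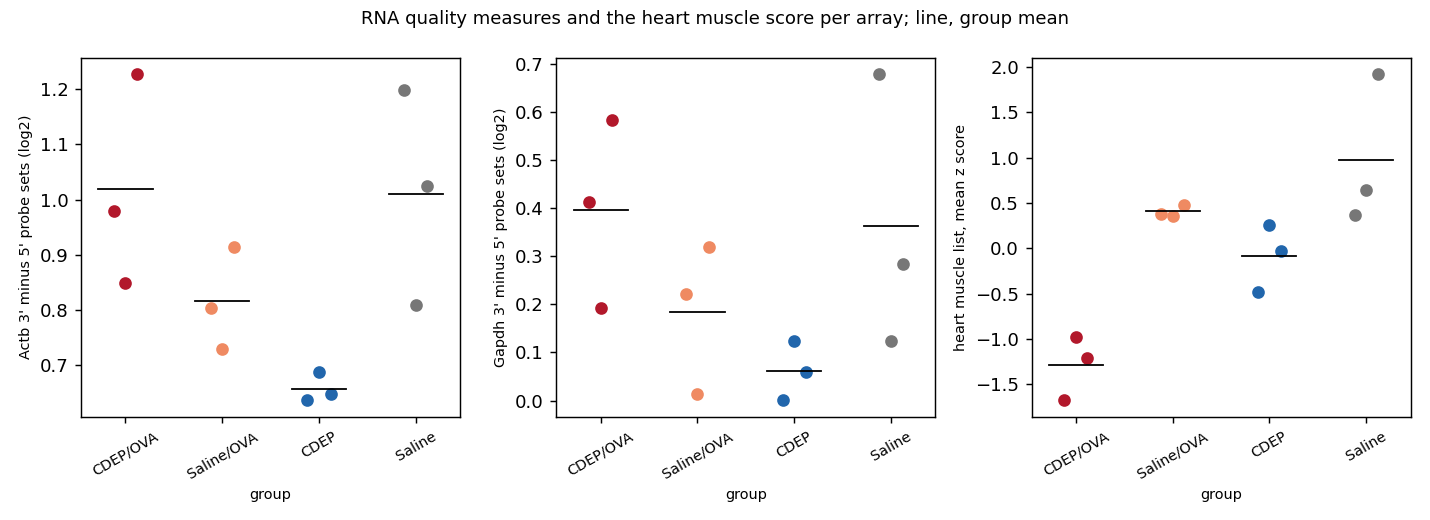
RNA quality and heart muscle markers on the 12 arrays, by group. Left and middle panels show the 3' minus 5' difference of the Actb and Gapdh probe sets in log2 units, the right panel the mean z score of the heart muscle list, each point is 1 array and each line a group mean; the 3 CDEP/OVA arrays have the lowest heart scores and the 3 CDEP arrays lie below the others for Actb.

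Ovalbumin changed the response to the particles for a small set of genes. Of 12393 genes, 46 passed an adjusted p of 0.05 for the interaction in limma (0.371% of genes tested, 0.258% above and 0.113% below 0), 32 with a more upward and 14 with a more downward shift in the presence of OVA, and 21 and 3 of them by at least 2-fold. Without adjustment 1575 of the 12393 genes had a p below 0.05 for the interaction, 870 above and 705 below 0. The same count was 2206 for CDEP/OVA against Saline/OVA lungs and 2444 for CDEP against Saline lungs. Unadjusted counts of the gene lists below are to be read against these totals, since a small list count can match them in proportion. The median interaction over all genes was 0.011, and 52.0% lay above 0. More genes passed for the response to CDEP itself than for the interaction: with OVA, 449 genes were higher and 145 lower in CDEP/OVA than in Saline/OVA lungs (4.79% of genes tested, 3.62% higher and 1.17% lower), and without OVA, 283 were higher and 218 lower in CDEP than in Saline lungs (4.04% of genes tested, 2.28% higher and 1.76% lower). These 2 contrasts use separate arrays, and 106 genes passed in both in the same direction, 17.8% of those called with OVA and 21.2% of those called without it, with 0 in opposite directions. Across the 12393 genes, which are not independent replicates, the 2 log2 fold changes correlated at r = 0.42.

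The counts depended on single arrays. The interaction count was 17 without Saline/OVA replicate 2, 22 without CDEP replicate 2, 26 without Saline/OVA replicate 3, 30 without Saline replicate 1 and 73 without Saline replicate 2. The count for CDEP with OVA was 217 without CDEP/OVA replicate 2, 223 without Saline/OVA replicate 2 and 384 without Saline/OVA replicate 3, against 594 with every array. The count for CDEP without OVA was 144 without CDEP replicate 2, 147 without Saline replicate 1, 187 without CDEP replicate 3, 188 without CDEP replicate 1 and 283 without Saline replicate 3, against 501 with every array. With the Actb and Gapdh differences as covariates, 13 genes passed for the interaction, 8 of them among the 46 (Chil4, Arg1, Cxcl9, Gbp6, Rnase2a, Gbp8, Cd274 and Ccl11). All 46 kept their sign in that fit, with a median absolute interaction of 0.83 against 1.03 and a median SE of 0.26 against 0.20. With heart and fat marker scores as covariates, 34 genes passed, 31 of them among the 46. The count for CDEP without OVA was 3 with the Actb and Gapdh differences as covariates, fewer than the 13 of the interaction, and 200 with heart and fat scores, and that for CDEP with OVA was 602 and 210 in those fits.

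OVA alone gave 0 calls. Between Saline/OVA and Saline lungs 0 genes passed in limma (0.00% of genes tested), 818 had an unadjusted p below 0.05, 12 passed with array weights and 1 passed without Saline replicate 1. Between CDEP/OVA and CDEP lungs 238 genes were higher and 206 lower (3.58% of genes tested, 1.92% higher and 1.66% lower). That count was 98 without CDEP replicate 2, 163 without CDEP/OVA replicate 3, 187 without CDEP/OVA replicate 2, 204 without CDEP replicate 1 and 221 without CDEP replicate 3, and it was 64 with RNA quality covariates and 47 with heart and fat scores.

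**Figure D2:**
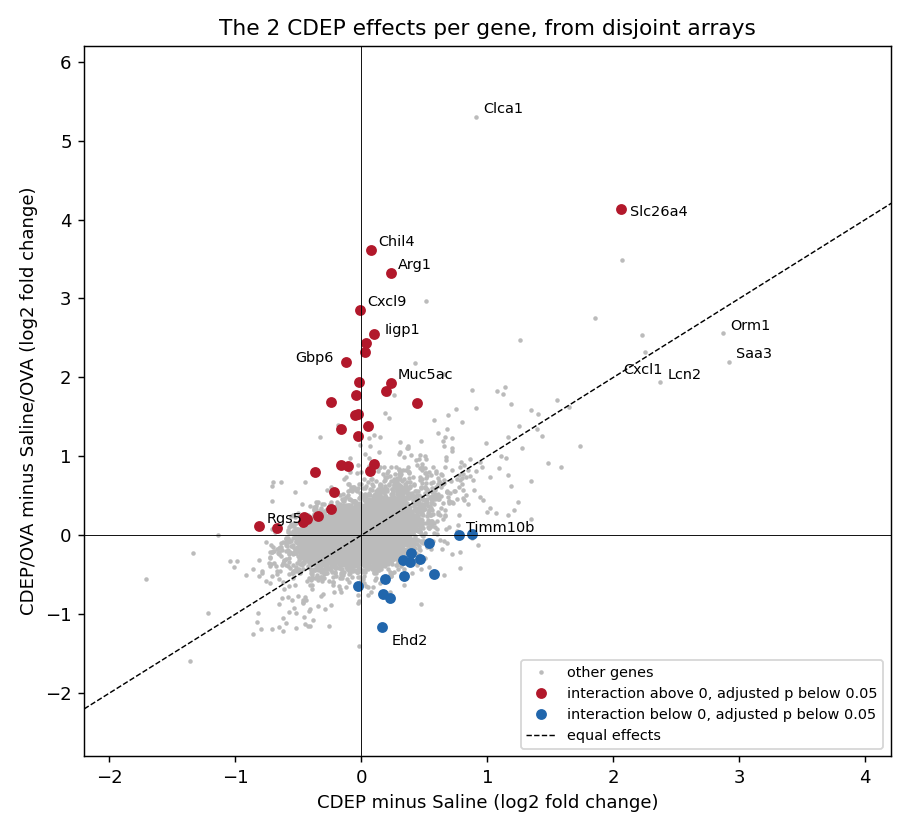
Response to CDEP with OVA (vertical axis, CDEP/OVA minus Saline/OVA) against the response without OVA (horizontal axis, CDEP minus Saline), in log2 fold change, 1 point per gene, with the line of equal effects dashed. Most of the 32 genes in red stand near 0 on the horizontal axis and well above it on the vertical axis, while the acute phase genes Saa3, Orm1 and Lcn2 and the chemokine Cxcl1 lie far out along the dashed line.

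The 32 genes above 0 mostly belonged to 1 pattern. In 25 of them the gene was higher after CDEP with OVA and not called without OVA, Slc26a4 rose in both settings, and 6 were lower after CDEP without OVA and had no call with OVA. All 3 CDEP/OVA arrays lay above the other 9 arrays for 26 of the 32, which the contrast that chose them favours, against 3.82% of all genes. Of the 46 genes, 16 stood in 3 of the gene lists examined: interferon gamma targets, alternatively activated macrophage genes and goblet cell genes.

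Genes listed for alternatively activated macrophages, among them the airway chitinase Chia1, rose after CDEP where OVA was present. Of 16 measured members 5 passed for the interaction and 0 fell, the median interaction was 0.61, and 15 of 16 lay above 0. With OVA 11 members were higher in CDEP/OVA than in Saline/OVA lungs. Without OVA 0 passed in limma, 5 had an unadjusted p below 0.05 and were higher, and 1 passed with array weights or with the replicate number as a block. The interaction count was 3 without Saline/OVA replicate 2, 4 or 5 without any other array, 2 with RNA quality covariates and 3 with log2 of the value plus 16. In the fit with heart and fat scores 6 were higher after CDEP with OVA.

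Chil4 (Entrez gene 104183, chromosome 3), a secreted chitinase-like protein of macrophages and airway epithelium, had the highest fitted interaction of the 46 genes. It read 7.79, 7.38 and 9.14 in CDEP/OVA lungs, 4.40, 4.42 and 4.63 in Saline/OVA lungs, 4.36, 4.45 and 4.63 in CDEP lungs and 4.31, 4.44 and 4.46 in Saline lungs (log2 intensity). The CDEP/OVA arrays stood apart from the other 9, and Chil4 was dim in the other 3 groups, where the sum of both separate effects would have put the CDEP/OVA mean at 4.56. The interaction was 3.54 ± 0.38 (SE, n = 3 mice per group; 95% interval 2.76 to 4.32; limma adjusted p = 1.83e-05). The levels of the other 3 groups are not shown to be above background, so no fold is given. It passed with any 1 of the 12 arrays left out and under all 11 other settings.

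Arg1 (Entrez gene 11846, chromosome 10), the arginase of alternatively activated macrophages, read 7.06, 8.53 and 6.71 in CDEP/OVA lungs, 4.11, 4.13 and 4.08 in Saline/OVA lungs, 4.11, 3.71 and 4.54 in CDEP lungs and 3.78, 4.14 and 3.73 in Saline lungs. The 3 groups without both agents overlapped one another and were dim, and the lowest CDEP/OVA array was above all of them. The interaction was 3.10 ± 0.47 (adjusted p = 0.00151).

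Chil3 (Entrez gene 12655), the chitinase-like protein also known as Ym1, is abundant in alveolar macrophages of untreated mice. It read 10.57, 10.29 and 10.57 in CDEP/OVA lungs, 7.81, 8.08 and 8.25 in Saline/OVA lungs, 8.30, 8.16 and 8.27 in CDEP lungs and 8.47, 8.28 and 7.87 in Saline lungs. The CDEP response was 2.43 ± 0.33 with OVA and 0.036 ± 0.33 without OVA, with an interaction of 2.40 ± 0.47 (adjusted p = 0.0192) whose call was lost without Saline/OVA replicate 2, Saline replicate 1 or CDEP replicate 2. Chia1, the acidic chitinase of the airway and stomach, had 10.42, 10.62 and 10.60 in CDEP/OVA lungs and no array above 8.80 in the other groups, with an interaction of 1.96 ± 0.33. Cd209e, a C-type lectin related to DC-SIGN, had an interaction of 0.75 ± 0.16 (adjusted p = 0.0315) and was dim in the other 3 groups. The Cd209e call held with 4 of the 12 arrays left out in turn. Retnla, the resistin-like protein of the same macrophages, was not called: it was 2.48 ± 0.44 higher after CDEP with OVA and 1.26 ± 0.44 without OVA, with an interaction of 1.22 ± 0.63 (adjusted p = 0.425).

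**Figure D3:**
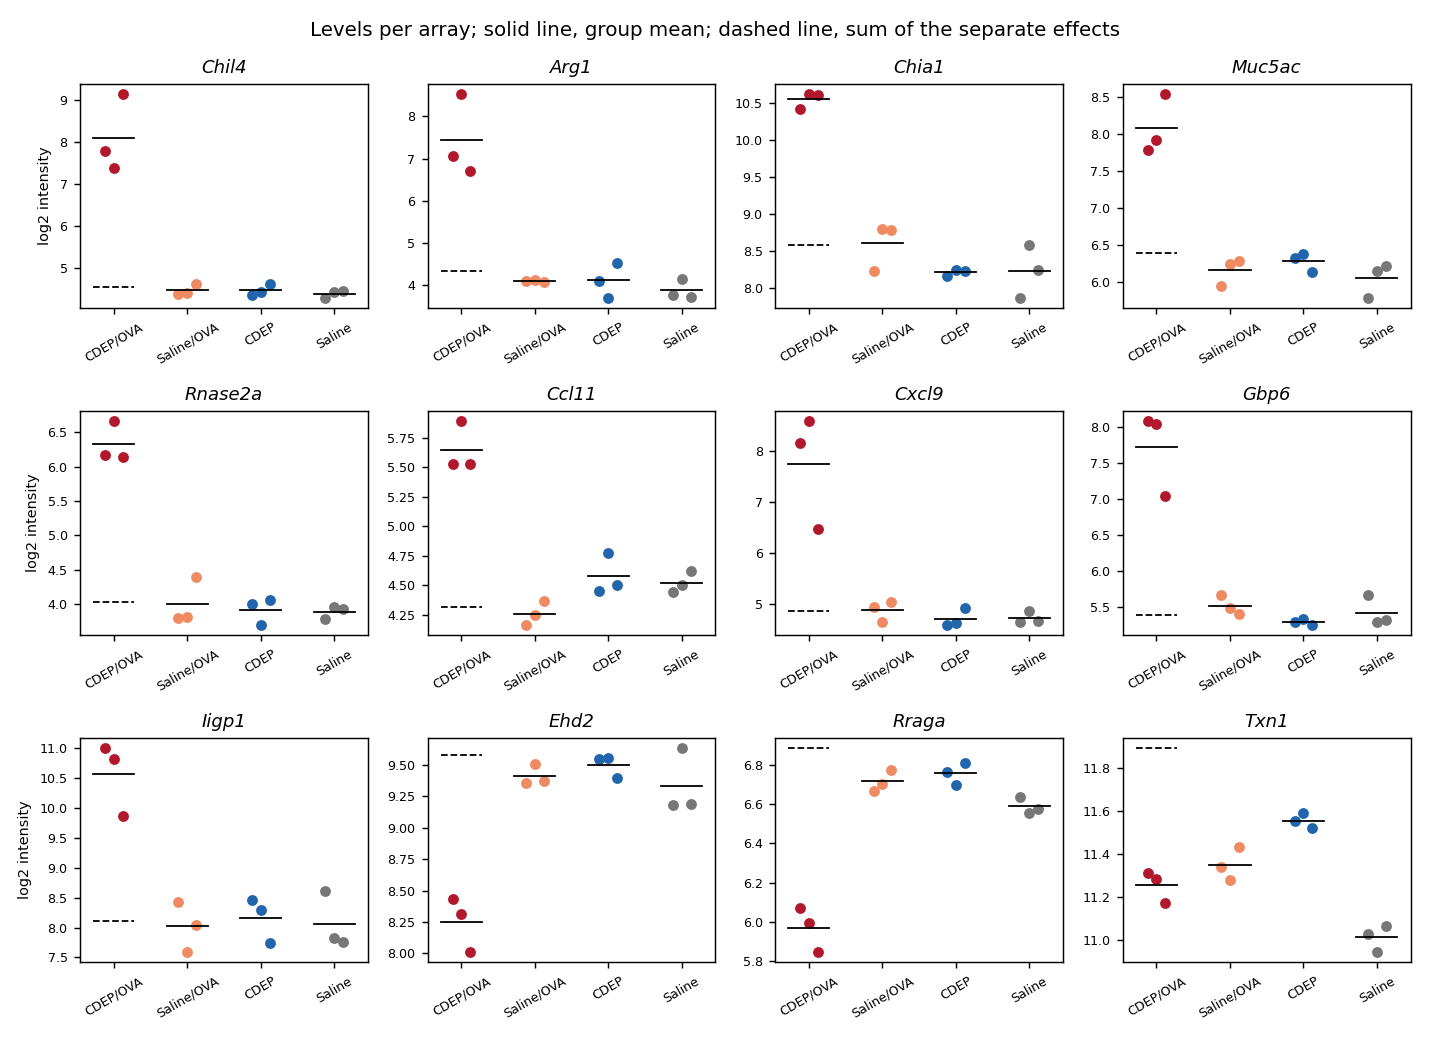
Level of 12 genes on each of the 12 arrays, in log2 intensity, with group means as solid lines and, for CDEP/OVA, the level that the separate CDEP and OVA effects would add up to as a dashed line. For Chil4, Arg1, Chia1, Muc5ac, Rnase2a, Ccl11, Cxcl9, Gbp6 and Iigp1 the 3 CDEP/OVA arrays lie above all others, for Ehd2 and Rraga they lie below all others, and for Txn1 the CDEP arrays are the highest group.

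Chil4 and Chil3 are neighbouring genes of nearly the same sequence, so their probe sets may read each other's RNA. Their start sites are shown because both moved together and the windows are close copies. RefSeq windows of 300 bases, from 250 before to 50 after the start site (build GRCm38.p6) were searched on both strands for GAS, TTCNNNGAA, for the interferon-stimulated response element (ISRE), GAAANNGAAA, and for the wider-spaced STAT6 site, TTCNNNNGAA. Windows with these letters made up 8.3%, 3.44% and 6.95% of 32851 windows of all genes. Chil4, minus strand, chr3:106219430-106219729, and Chil3, minus strand, chr3:106167515-106167814, each hold 1 GAS match, in capitals, which begins 200 and 172 bases before the start. Neither window holds ISRE or STAT6 letters.
Chil4: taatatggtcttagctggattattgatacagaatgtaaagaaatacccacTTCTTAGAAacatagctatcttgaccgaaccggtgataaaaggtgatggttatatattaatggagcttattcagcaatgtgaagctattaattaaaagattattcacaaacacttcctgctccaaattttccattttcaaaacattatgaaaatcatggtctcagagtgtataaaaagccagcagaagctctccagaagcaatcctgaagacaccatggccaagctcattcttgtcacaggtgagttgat
Chil3: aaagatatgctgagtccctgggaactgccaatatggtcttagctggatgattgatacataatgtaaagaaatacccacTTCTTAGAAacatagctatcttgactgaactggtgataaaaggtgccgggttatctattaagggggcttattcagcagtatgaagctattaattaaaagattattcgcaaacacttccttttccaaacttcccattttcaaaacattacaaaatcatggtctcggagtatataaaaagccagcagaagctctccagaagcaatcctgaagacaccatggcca

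Goblet cell and mucus genes also rose together. Of 18 measured members 3 passed for the interaction and 0 fell, 16 lay above 0, and the median was 0.80. After CDEP with OVA 13 were higher and 0 lower, and after CDEP without OVA 1 was higher and 0 lower. The interaction count was 6 without Saline/OVA replicate 3, 2 or 3 without any other array, 7 with array weights, 5 with the replicate number as a block and 0 with the Actb and Gapdh differences as covariates, which gave a median of 0.39.

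Muc5ac (Entrez gene 17833, chromosome 7), the gel-forming mucin of goblet cells, read 7.78, 7.92 and 8.55 in CDEP/OVA lungs, 5.94, 6.24 and 6.28 in Saline/OVA lungs, 6.32, 6.38 and 6.13 in CDEP lungs and 5.79, 6.14 and 6.21 in Saline lungs. The CDEP/OVA arrays did not overlap the rest, and the other 3 groups overlapped one another. Its interaction was 1.70 ± 0.25 (adjusted p = 0.00126), a 3.24-fold greater response with OVA. Itln1, the lectin intelectin of goblet cells, was dim in the other 3 groups and had an interaction of 1.50 ± 0.27 (adjusted p = 0.00932).

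Slc26a4, the epithelial anion exchanger pendrin (Entrez gene 23985, chromosome 12), was the 1 gene of the 46 that rose in both settings. It read 10.01, 10.32 and 9.59 in CDEP/OVA lungs, 6.37, 5.16 and 5.97 in Saline/OVA lungs, 8.10, 7.70 and 7.66 in CDEP lungs and 4.99, 6.27 and 6.01 in Saline lungs. The order of the groups was plain: CDEP/OVA arrays were highest, CDEP arrays next, and the Saline/OVA and Saline arrays overlapped. The CDEP response was 4.14 ± 0.29 with OVA and 2.06 ± 0.29 without OVA, so the interaction was 2.08 ± 0.41 (adjusted p = 0.0215), which was lost when any of 5 arrays was left out (Saline/OVA 2, CDEP/OVA 2, Saline 3, CDEP 2 and CDEP 3).

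Clca1, a secreted goblet cell protein that acts on mucus, had the largest interaction by size of the genes always given here without passing. It read 11.96, 11.51 and 12.33 in CDEP/OVA lungs, 6.79, 3.80 and 9.29 in Saline/OVA lungs, 5.20, 3.87 and 7.29 in CDEP lungs and 3.54, 4.59 and 5.48 in Saline lungs. The arrays within the Saline/OVA, CDEP and Saline groups spread widely, with Saline/OVA replicate 3 well above its group. The interaction was 4.39 ± 1.27 (limma adjusted p = 0.134) and came to 5.72 (adjusted p = 0.0197) without that array. No other left-out array and none of the other fits gave Clca1 a call. Fcgbp, a mucus protein, had 1.51 ± 0.35 (adjusted p = 0.0582).

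Type 2 recruitment genes were split. Of 21 measured type 2 cytokines, receptors and recruiting chemokines, 1 passed, Ccl11, the median interaction was -0.013, and 8 were dim in all 4 groups. Ccl11 (Entrez gene 20292, chromosome 11), eotaxin-1, which draws eosinophils, read 5.52, 5.89 and 5.53 in CDEP/OVA lungs, 4.17, 4.25 and 4.37 in Saline/OVA lungs, 4.45, 4.78 and 4.50 in CDEP lungs and 4.45, 4.50 and 4.62 in Saline lungs. The CDEP/OVA arrays lay above the other 9, and the gene was dim in Saline/OVA and Saline lungs. The interaction was 1.33 ± 0.19 (adjusted p = 0.00109). Ccl24, eotaxin-2, was 0.62 ± 0.18 higher after CDEP with OVA (adjusted p = 0.041) and 0.15 ± 0.18 without OVA, with an interaction of 0.47 ± 0.25 that did not pass.

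The type 2 cytokines themselves were near the lower end of each array. Il5 was dim in all 4 groups, Il13 was dim in all but the Saline group, and their interactions were 0.021 ± 0.17 and 0.12 ± 0.14. Il4 and Ifng, named after their values were seen because they are the classical inducers of the genes above, were dim in all 4 groups with interactions of 0.054 ± 0.17 and 0.012 ± 0.15. Il33, an epithelial alarm cytokine, rose by 1.54 ± 0.22 after CDEP with OVA and by 1.40 ± 0.22 without OVA (adjusted p = 0.000101 and 0.000907), with an interaction of 0.14 ± 0.31.

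Among 9 measured eosinophil genes 1 passed and 6 were dim in all 4 groups. The gene that passed, Rnase2a (Entrez gene 93726), an eosinophil-associated ribonuclease of a large mouse family with closely related copies, read 6.17, 6.66 and 6.15 in CDEP/OVA lungs, 3.80, 3.81 and 4.40 in Saline/OVA lungs, 4.0, 3.70 and 4.06 in CDEP lungs and 3.79, 3.95 and 3.93 in Saline lungs. It was dim in the other 3 groups, its CDEP/OVA arrays were above the rest, and its interaction was 2.30 ± 0.37 (adjusted p = 0.00325). Epx, the eosinophil peroxidase, had -0.024 ± 0.16, and Prg3, Il5ra and Ccr3 had -0.32, -0.21 and -0.16, with all 4 dim in all 4 groups. The median of the list was -0.066.

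Targets of interferon gamma were the list with the highest median. Of 22 measured members (27 listed) 8 passed for the interaction and 0 fell, 21 lay above 0, and the median was 1.06, against 0.011 over all genes. After CDEP with OVA 19 were higher and 0 lower. After CDEP without OVA 0 passed in limma and 1 had an unadjusted p below 0.05. Their summed intensity was 6335 to 12157 on CDEP/OVA arrays, 3740 to 4509 on Saline/OVA arrays, 3986 to 4233 on CDEP arrays and 3867 to 4209 on Saline arrays. The interaction count was 15 without CDEP/OVA replicate 3, 4 without CDEP/OVA replicate 2 or Saline/OVA replicate 2, 5 without CDEP/OVA replicate 1, Saline/OVA replicate 3 or CDEP replicate 2, 17 with array weights, 5 with only the compared groups in the fit or log2 of the value plus 16, and 5 with the Actb and Gapdh differences as covariates, which gave a median of 1.28. In the fit with heart and fat scores, 6 passed for CDEP with OVA and 7 for the interaction.

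Gbp6 (Entrez gene 100702, chromosome 5), a guanylate binding protein that attacks vacuoles holding pathogens, had the smallest interaction p of the list. It read 8.08, 8.03 and 7.04 in CDEP/OVA lungs, 5.67, 5.50 and 5.40 in Saline/OVA lungs, 5.30, 5.35 and 5.26 in CDEP lungs and 5.67, 5.29 and 5.32 in Saline lungs. All CDEP/OVA arrays were above the other 9, and the remaining groups overlapped between 5.26 and 5.67. The interaction was 2.31 ± 0.30 (95% interval 1.70 to 2.92; adjusted p = 0.000273), a 4.97-fold greater response with OVA.

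Cxcl9 (Entrez gene 17329, chromosome 5), which draws activated T cells through CXCR3, read 8.15, 8.59 and 6.48 in CDEP/OVA lungs, 4.94, 4.65 and 5.05 in Saline/OVA lungs, 4.60, 4.64 and 4.92 in CDEP lungs and 4.65, 4.87 and 4.67 in Saline lungs. CDEP/OVA replicate 3 was the lowest of its group and still above all other arrays. The CDEP response was 2.86 ± 0.33 with OVA and -0.011 ± 0.33 without OVA, with an interaction of 2.87 ± 0.46 (adjusted p = 0.00325). Cxcl10, a ligand of the same receptor, missed the threshold with 1.76 ± 0.41 (adjusted p = 0.0582) and is given after its value was seen.

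The immunity-related GTPases, which coat pathogen vacuoles, followed. Iigp1 (Entrez gene 60440) read 11, 10.82 and 9.87 in CDEP/OVA lungs, 8.42, 7.59 and 8.04 in Saline/OVA lungs, 8.45, 8.29 and 7.74 in CDEP lungs and 8.60, 7.82 and 7.77 in Saline lungs, with an interaction of 2.45 ± 0.43 (adjusted p = 0.00582). The lowest CDEP/OVA array lay above the highest of the others. Igtp had 1.64 ± 0.32 and Irgm1 1.28 ± 0.27 (adjusted p = 0.0168 and 0.0271), and their calls were lost when any of 4 and any of 8 arrays were left out.

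The guanylate binding proteins of the chromosome 3 cluster were smaller in size. Gbp3 read 8.31, 7.97 and 7.80 in CDEP/OVA lungs, 7.32, 7.03 and 7.06 in Saline/OVA lungs, 6.92, 7.01 and 7.0 in CDEP lungs and 7.44, 6.95 and 7.02 in Saline lungs, without overlap between the CDEP/OVA arrays and the rest, and had an interaction of 1.05 ± 0.19 (adjusted p = 0.0079). Gbp7 had 1.16 ± 0.25 and passed with 5 of the 12 arrays left out in turn. Gbp2b, which was not in the list, had 1.58 ± 0.29. Gbp8, also outside the list, had 1.93 ± 0.32 and was dim in the other 3 groups. Closely related copies of this family may share probe signal. Ido1, the tryptophan-degrading enzyme induced by interferon gamma, had 0.98 ± 0.20 (adjusted p = 0.0234) and was dim in the other 3 groups. The Ido1 call held with 5 of the 12 arrays left out in turn.

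Within the CDEP/OVA group the arrays ranked alike for these genes. All 8 called interferon gamma targets were lowest in replicate 3, and 7 of 8 were highest in replicate 1. For the 8 called macrophage and mucus genes, replicate 3 was the highest in 4 and the lowest in 3. Replicate 3 also had the largest Actb difference of the group, 1.23 log2, and its part in these values was not tested. Genes that share 1 array are not independent.

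The start-site windows of 5 interferon-responsive GTPase genes are shown because these genes moved together, and they were picked because their windows hold the letters of ISRE or GAS, in capitals (overlapping matches run together). Gbp7 on the plus strand at chr3:142530086-142530385 holds 2 GAS and 1 ISRE match, Gbp3 on the plus strand at chr3:142559794-142560093 holds 2 overlapping ISRE matches, and Gbp2b on the plus strand at chr3:142594597-142594896 holds 1 ISRE match. Igtp on the plus strand at chr11:58199306-58199605 holds 1 GAS and 1 ISRE match, and Irgm1 on the minus strand at chr11:48871371-48871670 holds 2 overlapping ISRE matches.
Gbp7: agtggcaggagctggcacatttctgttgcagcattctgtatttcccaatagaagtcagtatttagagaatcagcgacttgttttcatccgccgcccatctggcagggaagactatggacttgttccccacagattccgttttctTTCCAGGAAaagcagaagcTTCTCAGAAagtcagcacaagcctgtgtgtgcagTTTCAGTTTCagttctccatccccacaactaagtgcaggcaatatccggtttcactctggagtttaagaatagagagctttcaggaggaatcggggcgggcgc
Gbp3: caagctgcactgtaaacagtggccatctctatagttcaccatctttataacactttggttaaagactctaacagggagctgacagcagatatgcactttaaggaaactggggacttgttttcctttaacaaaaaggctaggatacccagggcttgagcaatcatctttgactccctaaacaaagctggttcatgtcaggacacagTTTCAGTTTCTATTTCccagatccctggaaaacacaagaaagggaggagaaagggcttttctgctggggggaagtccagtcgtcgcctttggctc
Gbp2b: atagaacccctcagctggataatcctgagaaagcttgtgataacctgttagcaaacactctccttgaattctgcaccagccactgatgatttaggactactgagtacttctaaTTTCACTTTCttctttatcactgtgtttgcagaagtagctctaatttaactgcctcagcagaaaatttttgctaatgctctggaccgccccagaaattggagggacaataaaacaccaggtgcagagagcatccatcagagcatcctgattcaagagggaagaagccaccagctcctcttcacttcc
Igtp: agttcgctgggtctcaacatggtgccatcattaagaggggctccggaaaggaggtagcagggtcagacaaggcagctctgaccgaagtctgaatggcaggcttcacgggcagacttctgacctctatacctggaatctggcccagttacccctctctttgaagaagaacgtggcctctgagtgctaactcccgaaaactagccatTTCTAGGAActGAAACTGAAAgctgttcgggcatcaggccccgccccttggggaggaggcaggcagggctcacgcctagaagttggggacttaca
Irgm1: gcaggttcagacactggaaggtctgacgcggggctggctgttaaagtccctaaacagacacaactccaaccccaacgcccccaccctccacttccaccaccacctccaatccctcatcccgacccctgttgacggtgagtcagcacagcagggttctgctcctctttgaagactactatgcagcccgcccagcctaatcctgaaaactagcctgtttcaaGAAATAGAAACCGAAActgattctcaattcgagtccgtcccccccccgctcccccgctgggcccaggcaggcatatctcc

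Of the 8 called interferon gamma targets 5 had a window in the RefSeq table, and 4 of them held ISRE and 2 GAS letters, while Cxcl9 held neither in these 300 bases. Over 27025 genes with a window, 3.99% held ISRE and 9.55% GAS letters. Among all 32 genes with an interaction above 0, 24 had a window, 6 held ISRE, 6 held GAS and 10 held either, and among the 14 below 0, 12 had a window and 4 held either. Either was found in 12.9% of all genes. STAT6 letters were held by 3 of the 24 genes above 0, 0 of the 12 below 0 and 8.01% of all genes. Of the called macrophage and mucus genes 6 had a window. Of these 2 held GAS, 1 held ISRE, 3 held either and 1 held STAT6 letters. A match describes the letters of the window only.

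Neighbouring parts of the interferon programme had values of the same sign and smaller size. Of 20 measured type I interferon targets 0 passed for the interaction in limma, 9 had an unadjusted p below 0.05 and were all above 0, 1 passed with array weights, and the median was 0.46. After CDEP with OVA 11 of them were higher, 4 of them without Saline/OVA replicate 2, CDEP/OVA replicate 1 or CDEP/OVA replicate 2. After CDEP without OVA 0 passed in limma and 3 with array weights. There 4 of the 20 had an unadjusted p below 0.05, against 2444 of 12393 genes. With heart and fat scores the first of these counts was 2. Ifit1, an antiviral RNA-binding protein, had 0.74 ± 0.26 and Rtp4 0.66 ± 0.24. Of 10 measured genes of class I antigen presentation 0 passed in limma, 4 had an unadjusted p below 0.05, 3 passed with array weights, and the median was 0.32. Tap1, which carries peptides into the endoplasmic reticulum, had 1.15 ± 0.29 (adjusted p = 0.0885), and the immunoproteasome subunit Psmb9 had 0.82 ± 0.26. Without CDEP/OVA replicate 3, Tap1, Tap2 and Psmb9 passed. For 10 measured genes of class II presentation the median was 0.10, with 0 called and 1 at an unadjusted p below 0.05. T cell markers had a median of -0.0093 over 18 measured genes, and NK cell and cytotoxic markers 0.10 over 13, with 0 called in each. At an unadjusted p below 0.05, 1 T cell marker lay above and 1 below 0. For NK cell and cytotoxic markers these counts were 2 above and 1 below 0.

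Further genes above 0 lay outside these lists. Scin (Entrez gene 20259, chromosome 12), an actin-severing protein of the gelsolin family, read 6.22, 5.89 and 6.93 in CDEP/OVA lungs, 4.53, 4.62 and 4.57 in Saline/OVA lungs, 4.58, 4.51 and 4.72 in CDEP lungs and 4.46, 4.77 and 4.71 in Saline lungs. Its CDEP/OVA arrays lay above all others, and the interaction was 1.81 ± 0.25 (adjusted p = 0.000521). Cd274, the T cell inhibitory ligand PD-L1, had 1.56 ± 0.32 (adjusted p = 0.0239) and passed with 4 of the 12 arrays left out in turn. Egr2, an immediate early transcription factor, had 0.80 ± 0.16 and passed with 7 of the 12 arrays left out in turn. The 6 genes that were lower after CDEP only without OVA, named after their values were seen, were Rgs5, Tal1, Tstd2, Zfp472, Nup210 and 2410004B18Rik. Rgs5, a pericyte regulator of G protein signalling, was 0.12 ± 0.14 after CDEP with OVA and -0.81 ± 0.14 without OVA, with an interaction of 0.92 ± 0.20. Tal1, a transcription factor of blood and endothelium, was 0.095 ± 0.11 with OVA and -0.67 ± 0.11 without OVA. Its call held with 6 of the 12 arrays left out in turn. The Rgs5 call held with 2 of the 12 arrays left out in turn and its interaction came to 0.064 with the mean of its probe sets, and with RNA quality covariates 0 genes were called lower after CDEP without OVA and Tstd2 had an interaction of 0.27. With log2 of the value plus 16, Ido1 came to 0.54 and Cd209e to 0.41 and neither passed, while Gbp8 came to 1.26, Itln1 to 0.94 and Ccl11 to 0.88 and passed.

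Genes with a more downward response in the presence of OVA were fewer and smaller in size. Of the 14, 6 were lower after CDEP with OVA and not called without OVA, 7 were higher after CDEP without OVA and not called with OVA, and Ikzf1 (-0.64 ± 0.14), the lymphocyte transcription factor Ikaros, was called in neither. All 3 CDEP/OVA arrays lay below the other 9 for Ehd2, Hamp, Rraga, Phf3 and Taok1. These are 5 of the 14, against 3.73% of all genes, and the contrast that chose them favours this order. Only Ehd2 and Rraga passed with any 1 array left out, 0 of the 14 passed with RNA quality covariates, and 7 passed with heart and fat scores.

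Ehd2 (Entrez gene 259300, chromosome 7), an ATPase at the necks of caveolae, read 8.44, 8.31 and 8.01 in CDEP/OVA lungs, 9.35, 9.51 and 9.37 in Saline/OVA lungs, 9.55, 9.55 and 9.40 in CDEP lungs and 9.18, 9.64 and 9.19 in Saline lungs. The CDEP/OVA arrays lay below all others, which overlapped. The interaction was -1.32 ± 0.23 (adjusted p = 0.00562). It came to -0.66 with the mean of its probe sets, which passed, and to -0.62 with RNA quality covariates, which did not.

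Rraga (Entrez gene 68441, chromosome 4), a Rag GTPase that signals amino acids to mTORC1, read 6.07, 5.99 and 5.85 in CDEP/OVA lungs, 6.67, 6.70 and 6.78 in Saline/OVA lungs, 6.76, 6.70 and 6.81 in CDEP lungs and 6.64, 6.55 and 6.57 in Saline lungs. Here CDEP/OVA was again the lowest group. The interaction was -0.91 ± 0.15 (adjusted p = 0.00472).

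Txn1 (Entrez gene 22166, chromosome 4), the redox protein thioredoxin, followed the other pattern and read 11.31, 11.29 and 11.17 in CDEP/OVA lungs, 11.34, 11.28 and 11.43 in Saline/OVA lungs, 11.55, 11.59 and 11.52 in CDEP lungs and 11.03, 10.95 and 11.07 in Saline lungs. CDEP arrays were the highest group, and the CDEP/OVA and Saline/OVA arrays overlapped. The CDEP response was -0.093 ± 0.084 with OVA and 0.54 ± 0.084 without OVA, with an interaction of -0.63 ± 0.12 (adjusted p = 0.0125) that was lost without Saline/OVA replicate 3.

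Hamp, the iron-regulating peptide hepcidin, had -1.02 ± 0.21, the glutathione transferase Mgst3 -0.77 ± 0.17, the mitochondrial respiratory chain subunit Ndufa4 -0.73 ± 0.16, the mitochondrial import protein Timm10b -0.77 ± 0.15 and the ribosomal protein gene Rps4l -1.07 ± 0.23. The remaining 5 were Tmem243 (-0.86 ± 0.18), Maats1 (-0.86 ± 0.18), Phf3 (-0.74 ± 0.15), Taok1 (-0.62 ± 0.14) and Cacna1b (-0.62 ± 0.14). With the mean of a gene's probe sets 5 of the 14 lost their call, where Timm10b came to -0.16, Taok1 to -0.13, Phf3 to -0.32, Mgst3 to -0.36 and Txn1 to -0.46. With RNA quality covariates Rps4l came to -0.64, Phf3 to -0.40 and Ikzf1 to -0.36. No more than 1 member of any list examined was called below 0: Txn1 among 20 antioxidant genes of NRF2, Hamp among 10 metal handling genes and Ndufa4 among 25 genes of oxidative phosphorylation.

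**Figure D4:**
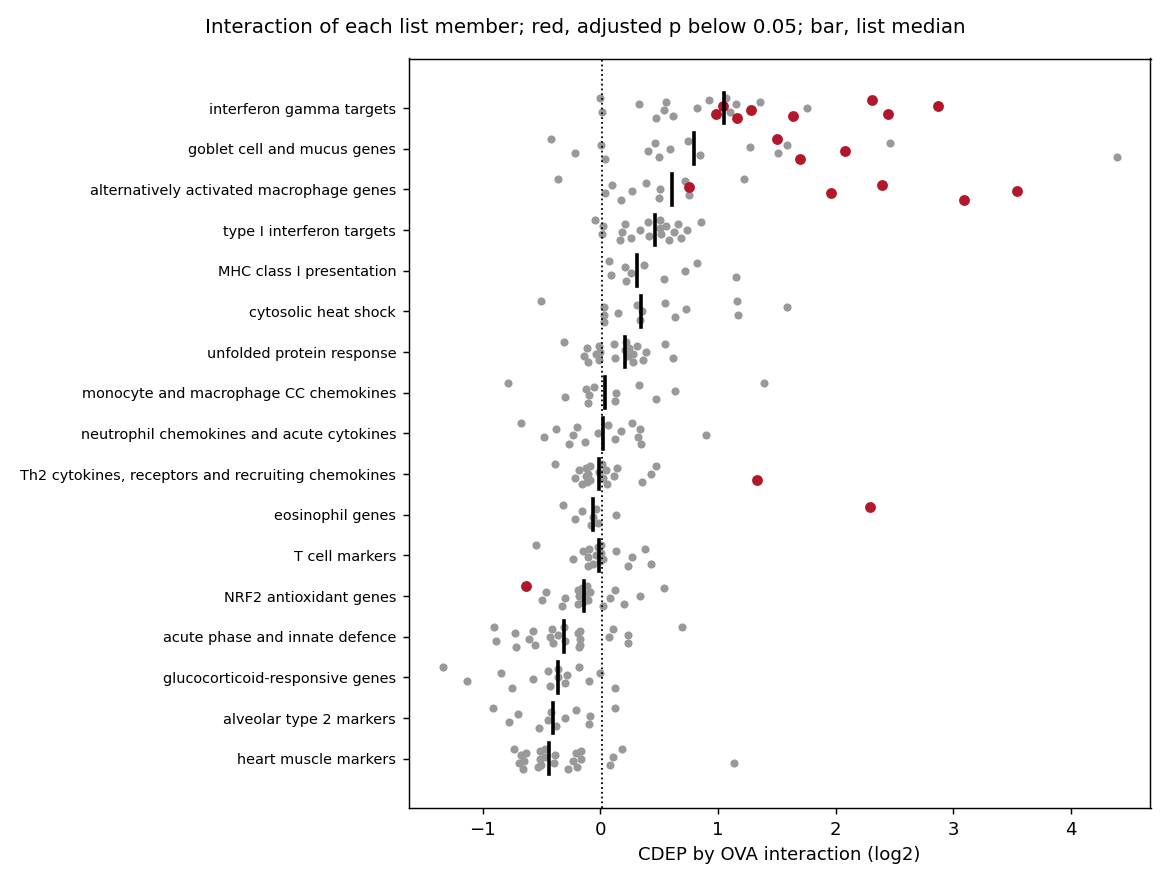
Interaction of each measured member of 17 gene lists, in log2; red points passed an adjusted p of 0.05, grey points did not, and the black bar is the list median. Interferon gamma targets have the highest median (1.06), followed by goblet cell genes (0.80) and alternatively activated macrophage genes (0.61), and heart muscle markers the lowest (-0.43).

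The acute phase and chemokine response to CDEP was present with and without OVA. Of 23 measured acute phase and innate defence genes 11 were higher after CDEP with OVA and 16 without OVA, with 0 lower in either. For the interaction 0 passed in limma, with a list median of -0.31. At an unadjusted p below 0.05 were 3 of the 23, all below 0, against 1575 of 12393 genes (705 of them below 0). The count with OVA was 5 without Saline/OVA replicate 2 and 6 without CDEP/OVA replicate 2. With RNA quality covariates the count without OVA was 1.

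Saa3, an acute phase amyloid protein of inflamed lung, rose by 2.20 ± 0.49 after CDEP with OVA and by 2.92 ± 0.49 without OVA, and its interaction of -0.72 ± 0.69 had a 95% interval of -2.15 to 0.71. Orm1, an acute phase plasma protein, rose by 2.56 ± 0.38 with OVA and 2.87 ± 0.38 without OVA (interaction -0.31 ± 0.54). Lcn2, which withholds iron from bacteria, rose by 1.94 ± 0.36 and 2.37 ± 0.36 (interaction -0.43 ± 0.51). S100a8, a calcium-binding protein of neutrophils, was 0.33 ± 0.28 after CDEP with OVA, which did not pass, and rose by 1.21 ± 0.28 without OVA, and the difference of -0.88 ± 0.39 did not pass (adjusted p = 0.344).

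Of 16 measured neutrophil chemokines and acute cytokines 6 were higher after CDEP with OVA and 6 without OVA, and the median interaction was 0.022. Cxcl1, a neutrophil chemokine, rose by 2.32 ± 0.33 with OVA and 2.25 ± 0.33 without OVA, with an interaction of 0.067 ± 0.47 (95% interval -0.91 to 1.04). The monocyte chemokine Ccl2 rose by 1.38 ± 0.22 and 1.25 ± 0.22, and the B cell chemokine Cxcl13 by 1.71 ± 0.33 and 1.56 ± 0.33. Their interactions were 0.13 ± 0.31 and 0.16 ± 0.47. Csf2, the growth factor GM-CSF, had the smallest interaction p of that list and did not pass (-0.68 ± 0.19, adjusted p = 0.12).

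Of 8 measured targets of the aryl hydrocarbon receptor, which senses polycyclic hydrocarbons, 0 passed for the interaction in limma, 1 had an unadjusted p below 0.05 and Cyp1a2 (-0.53) passed with array weights, and among the antioxidant genes Txn1 was called as given above. Cyp1a1, the best known of these targets, was 0.44 ± 0.26 with OVA and 0.23 ± 0.26 without OVA, and neither passed. Cyp1b1 was 0.45 ± 0.22 with OVA and rose by 0.97 ± 0.22 without OVA (adjusted p = 0.0165), with an interaction of -0.51 ± 0.31 that did not pass. Hmox1, the haem-degrading enzyme of the oxidative stress response, was 0.50 ± 0.16 with OVA and rose by 0.83 ± 0.16 without OVA (interaction -0.33 ± 0.23). Nqo1, a quinone reductase, had an interaction of 0.025 ± 0.20.

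The same difference of differences was computed for the other 2 particles against the same Saline/OVA and Saline arrays, so the 3 interactions are not independent. NDEP gave 3 calls above 0 and 0 below (0.0242% of genes tested), namely Chil4 (2.75 ± 0.38), Rnase2a (2.05 ± 0.37) and Cd209e (1.02 ± 0.16). ADEP gave 1 above, Ccl11 (1.32 ± 0.19), and 2 below, Bambi (-0.78 ± 0.14) and Timm10b (-0.80 ± 0.15), together 0.0242% of genes tested (0.00807% above and 0.0161% below 0). A count does not compare the particles, so the difference between interactions was tested directly, where the shared arrays cancel.

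For CDEP against NDEP 1 gene passed, Gbp6 (0.00807% of genes tested), with a difference of 1.80 ± 0.30 (adjusted p = 0.0324). Gbp6 read 8.08, 8.03 and 7.04 in CDEP/OVA lungs and 6.46, 5.69 and 6.38 in NDEP/OVA lungs, without overlap, and 6.29, 6.29 and 5.80 in ADEP/OVA lungs. Without OVA it read 5.30, 5.35 and 5.26 in CDEP, 5.68, 5.57 and 5.45 in NDEP and 5.43, 5.14 and 5.12 in ADEP lungs. The count was 10 without CDEP/OVA replicate 3, 4 without NDEP/OVA replicate 1, 2 without NDEP/OVA replicate 3 and 0 when NDEP/OVA replicate 2, CDEP/OVA replicate 2, any NDEP array or any CDEP array was left out. Without CDEP/OVA replicate 1 another gene passed and Gbp6 did not.

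For CDEP against ADEP 3 genes passed (0.0242% of genes tested, 0.0161% above and 0.00807% below 0). Chil4 had a difference of 2.74 ± 0.38 (adjusted p = 0.00193), B3gnt5, a glycosyltransferase, 0.93 ± 0.17, and Cacna1b, a neuronal calcium channel subunit, -0.82 ± 0.14. Chil4 read 7.79, 7.38 and 9.14 in CDEP/OVA lungs, 7.49, 6.72 and 7.22 in NDEP/OVA lungs and 4.87, 5.61 and 5.13 in ADEP/OVA lungs. The CDEP/OVA and NDEP/OVA arrays overlapped, and both lay above the ADEP/OVA arrays. The count was 37 without ADEP/OVA replicate 2, 25 without ADEP/OVA replicate 3, 21 without CDEP/OVA replicate 3, 9 without CDEP/OVA replicate 1 and 1 without ADEP/OVA replicate 1, ADEP replicate 1, CDEP replicate 2 or CDEP replicate 3.

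By list, the interferon gamma targets had a median interaction of 1.06 for CDEP, 0.28 for NDEP and 0.33 for ADEP. The alternatively activated macrophage genes had 0.61, 0.62 and 0.51, and the goblet cell genes 0.80, 0.63 and 0.22, in the same order of particles. For the interferon gamma targets the CDEP interaction exceeded that of NDEP in 21 of 22 genes and that of ADEP in 20 of 22. The median differences were 0.69 and 0.80, against 0.0089 and -0.025 over all genes. Of the differences within the list 1 and 0 passed in limma. This list had the highest CDEP median, which favours CDEP in these counts, and its genes are not independent. Cxcl9 had 2.87 ± 0.46 for CDEP, 0.95 ± 0.46 for NDEP and 0.68 ± 0.46 for ADEP, while Chil3 had 2.40 ± 0.47, 2.22 ± 0.47 and 1.70 ± 0.47.

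**Figure D5:**
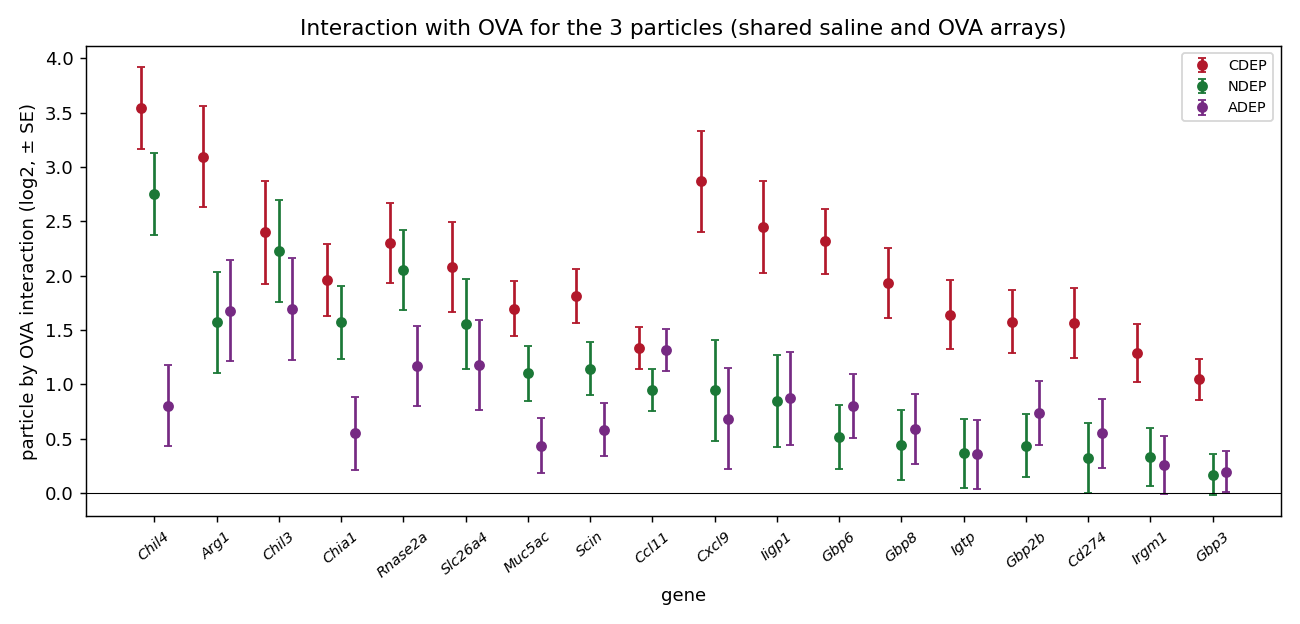
Interaction with OVA of 18 genes called for CDEP, for each of the 3 particles, in log2 with SE bars; the 3 share the Saline/OVA and Saline arrays. Among the interferon-responsive genes on the right the CDEP value is the highest of the 3 for each gene. The genes were chosen by their CDEP interaction, which favours this order. Among the genes on the left Chil3 and Ccl11 show the closest values.

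Heart muscle markers tended lower after CDEP both with and without OVA. Of 24 measured markers 20 were lower after CDEP with OVA and 0 higher, and 2 were lower without OVA. At an unadjusted p below 0.05 in limma, 21 were lower with OVA and 19 without OVA, with list medians of -0.94 and -0.48. For the interaction 0 passed in limma, with 5 at an unadjusted p below 0.05, all below 0, and a median of -0.43. The count of 20 was 12 without CDEP/OVA replicate 1, and the count of 2 was 0 without Saline replicate 3, CDEP replicate 1 or CDEP replicate 2 and 5 without Saline replicate 2. Alveolar type 2 markers had a median interaction of -0.40 over 12 genes and glucocorticoid-responsive genes -0.36 over 15, with 0 called in each and 6 and 3 at an unadjusted p below 0.05. For NDEP and ADEP, against the same saline arrays, the alveolar type 2 medians were -0.38 and -0.49. The glucocorticoid medians for NDEP and ADEP were 0.0089 and 0.007.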

How the data were processed

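Whole-lung RNA of 24 mice, in 8 groups of 3 by sample title, was hybridised to 1 Affymetrix array each. The deposited table gives 1 intensity per probe set and array after RMA normalization, per the submitters' processing notes, whose version is not given in the sources used here. They ran from 5.98 to 18195.5, a linear scale, whereas the planned test assumed log2 values, and they were therefore logged (base 2) before fitting. RMA tends to shrink changes near background. Of 22690 probe sets, 20380 had 1 gene symbol in the platform annotation, and 64 controls, 691 with several symbols and 1555 with none were left out. A gene with several probe sets (4956 genes) is given by its brightest on average over the 24 arrays, for 12393 unfiltered genes. limma 3.58.1 in R 4.3.3 fitted 8 group means to the 24 arrays (16 residual and 8.16 prior degrees of freedom), two-sided, with Benjamini-Hochberg adjustment over all genes within each comparison at 0.05. The members, the 60 gene lists (1071 members, 925 measured) and the tests were chosen with earlier results of these data known. Named genes were the 15 highest and 15 lowest interactions among those that passed, up to 4 members of smallest p per list described, up to 5 that passed between particles, and 23 genes always given. Further names are said to be chosen after their values were seen or were taken from the called members of a list. No pair of arrays was a copy (highest correlation 0.9961, at most 0.0353% identical values). Alternatives were all probe sets, their mean, a filter on dim genes, quantile normalization, log2 of the value plus 16, array weights, a robust variance with a trend, a fit of the compared groups alone, the replicate number as a block, RNA quality or heart and fat scores as covariates, other thresholds, and each array left out. For Saline/OVA against Saline, all 3 pairs of arrays with the same replicate number deviated together (r = 0.27, 0.21 and 0.19), and the block left 0 calls there. The code was tested on simulated data. Python 3.11.15 (pandas 2.3.3, numpy 2.4.6, matplotlib 3.10.9) searched the promoter windows and drew the plots.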

Additional observations from a re-analysis of the deposited data

Results flagged for a closer look

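The response to CDEP differed between mice with and without OVA for 46 genes by the test of the interaction itself. The 15 highest, in log2, were Chil4 (3.54), Arg1 (3.10), Cxcl9 (2.87), Iigp1 (2.45), Chil3 (2.40), Gbp6 (2.31), Rnase2a (2.30), Slc26a4 (2.08), Chia1 (1.96), Gbp8 (1.93), Scin (1.81), Muc5ac (1.70), Igtp (1.64), Gbp2b (1.58) and Cd274 (1.56). The 14 below 0 were Ehd2 (-1.32), Rps4l (-1.07), Hamp (-1.02), Rraga (-0.91), Tmem243 (-0.86), Maats1 (-0.86), Timm10b (-0.77), Mgst3 (-0.77), Phf3 (-0.74), Ndufa4 (-0.73), Ikzf1 (-0.64), Txn1 (-0.63), Taok1 (-0.62) and Cacna1b (-0.62). Between particles, the interaction with OVA differed for Gbp6 between CDEP and NDEP (1.80), and for Chil4 (2.74), B3gnt5 (0.93) and Cacna1b (-0.82) between CDEP and ADEP.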

How the results depend on the processing

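All 46 interactions kept their sign under every alternative run, but the balance of calls turned in some. The interaction count of 46 genes (32 above and 14 below 0) was 107 over all probe sets (47 above and 60 below), 263 with array weights (155 and 108), 25 with only the compared groups (20 and 5), 13 with RNA quality covariates (12 and 1), 121 at an adjusted p of 0.1, 1575 at an unadjusted p of 0.05, and 17 to 73 with 1 array left out. The 594 genes for CDEP with OVA were 1055 with array weights, 210 with heart and fat scores, and 217 to 573 with 1 array left out. The 501 for CDEP without OVA (283 higher and 218 lower) were 765 over all probe sets (448 and 317), 1450 with array weights, where lower calls were the majority (662 and 788), 3 with RNA quality covariates (3 and 0), 200 with heart and fat scores, and 144 to 603 with 1 array left out. The 444 for OVA with CDEP (238 higher and 206 lower) were 880 over all probe sets, where lower calls were the majority (399 and 481), as they were among 413 with the mean of a gene's probe sets (203 and 210), 953 with array weights (493 and 460), 64 with RNA quality covariates (49 and 15), 47 with heart and fat scores (31 and 16), and 98 to 374 with 1 array left out. The 0 for OVA alone became 12 with array weights and 0 to 1 with 1 array left out.

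The 1 gene for CDEP against NDEP was lost (0) over all probe sets, with the mean of a gene's probe sets, quantile normalization, log2 of the value plus 16, a trended robust variance, the compared groups alone in the fit, and heart and fat scores. The count was 6 with array weights, 2 with RNA quality covariates, and 0 to 10 with 1 array left out. The 3 genes for CDEP against ADEP were 7 over all probe sets, 10 with the filter on dim genes, 12 with quantile normalization, 191 with array weights, 20 with only the compared groups, 12 with the replicate block, 0 with RNA quality covariates, 1 with heart and fat scores, and 1 to 37 with 1 array left out. The causes were not tested, except that fewer samples or genes enter some of these fits.

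Of the 46 genes, 15 passed with each array left out and 7 under all other settings. The 223 other named genes gave 25 calls under other settings and 12 with an array left out. The 4 groups share replicate numbers, and nothing in the labels says that a number marks a shared litter or day. The correlation of deviations from the group means ran from -0.32 to 0.27 over 18 pairs of arrays with the same number (median 0.10, 9 above 0.1) and from -0.36 to 0.33 over 36 pairs with different numbers (median -0.042, 4 above 0.1). The same-number pairs had the higher median, and these values do not settle whether the mice were paired. The main fit of the interaction treated them as unpaired. With the number as a block the interaction count was 47 and held 40 of the 46 genes. Ifi202b, Zfp472, Nup210, Eri1, Taok1 and Cacna1b lost their call, and among the other named genes Nr1d1 and Fcgbp gained one. 3 mice per group limit every count, and levels of dim genes are not shown to lie above background.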

Other observations

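Some heat shock genes of the cytosol rose after CDEP with OVA. Of 14 measured cytosolic heat shock genes 6 were higher after CDEP with OVA and 0 without OVA in limma, where 4 had an unadjusted p below 0.05. Their median interaction was 0.35, with 0 called and 5 at an unadjusted p below 0.05, 4 above and 1 below 0. Dnajb1, a cochaperone of HSP70, had 1.16 ± 0.33 and the inducible HSP70 gene Hspa1a 1.59 ± 0.60, and neither passed. Of 21 measured genes of the unfolded protein response 14 were higher after CDEP with OVA and 9 without OVA, with a median interaction of 0.21, 0 called and 2 at an unadjusted p below 0.05.

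Metallothioneins had values below 0. Mt1 and Mt2, which bind zinc and rise with metals and glucocorticoids, had interactions of -1.04 ± 0.39 and -1.14 ± 0.44, and Zbtb16, a transcription factor that glucocorticoids induce, had -1.34 ± 0.55. None of the 3 passed. The clock gene Nr1d1 had -1.16 ± 0.30 (adjusted p = 0.0887). Among coagulation genes F10 had 0.84 ± 0.20 and F7 0.67 ± 0.19 (adjusted p = 0.0722 and 0.124), both above 0 and neither called.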
